A study of Rattus norvegicus with 9 samples.

Results

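The 10 genes described here encode proteins that modify, cleave, cross-link or break down collagen: Pcolce, Lox, Loxl1, P4ha1, Plod2, Serpinh1, Mmp2, Mmp14, Timp1 and Timp3. They were chosen by symbol, as every probe set whose single gene symbol in the platform annotation is one of these names, and they stand among 14217 genes with a single symbol on the array. Together they have 17 probe sets, of which 15 were bright enough to be tested, so that each of the 10 genes was tested at least once. RNA came from the gastrocnemius, a calf muscle, of male Wistar rats of 250 g, with 1 Affymetrix rat expression array per animal. For 7 days an implanted Alzet osmotic pump delivered 1 of 3 treatments to 3 animals each. The first group received the synthetic glucocorticoid dexamethasone (0.7 mg/kg/day) together with the androgen testosterone, the second received the same dose of dexamethasone alone, and the third received only the solvent, propylene glycol. The testosterone dose is 28 mg/kg/day in the sample labels and 20 mg/kg/day in the series design. The pump and propylene glycol were common to all 3 groups, no group received testosterone without dexamethasone, and whole muscle tissue was taken, so the RNA is that of fibres and of every other cell type in the piece.

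Procollagen chains are hydroxylated on proline and lysine and folded into a triple helix in the endoplasmic reticulum, where the chaperone Serpinh1 (HSP47) holds the helix until export. Outside the cell the end peptides are cut off, the molecules assemble into fibrils, and lysyl oxidases oxidise lysine side chains so that neighbouring molecules become covalently cross-linked. Matrix metalloproteinases cut the finished matrix, and the TIMP proteins inhibit them. In skeletal muscle this matrix carries force from the fibres to the tendon, and fibroblasts of the connective tissue make most of it.

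The stretch of 250 bases before the start site is shown for Serpinh1, Pcolce and Loxl1, the members with the lowest p-values against vehicle. Sequences are from a RefSeq-derived set of promoter windows on the rat build GRCr8. That set held 7 of the 10 genes by symbol: P4ha1, Plod2, Serpinh1, Pcolce, Loxl1, Timp1 and Timp3. Lox, Mmp2 and Mmp14 were not looked for elsewhere. Serpinh1 lies on the minus strand at chr1:163062977-163063226, Pcolce on the plus strand at chr12:24720722-24720971 and Loxl1 on the minus strand at chr8:67612225-67612474, and each is written 5′ to 3′ along its gene. Capitals mark a GC box, GGGCGG on either strand, the only searched motif found in these 3 windows. It was in those of Serpinh1 and Pcolce, and the window of Loxl1 held none of the searched motifs.
Serpinh1: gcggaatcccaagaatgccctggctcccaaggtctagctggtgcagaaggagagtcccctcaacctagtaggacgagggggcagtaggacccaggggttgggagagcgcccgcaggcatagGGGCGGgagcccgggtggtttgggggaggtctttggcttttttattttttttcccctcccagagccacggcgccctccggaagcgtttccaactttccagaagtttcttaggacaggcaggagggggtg
Pcolce: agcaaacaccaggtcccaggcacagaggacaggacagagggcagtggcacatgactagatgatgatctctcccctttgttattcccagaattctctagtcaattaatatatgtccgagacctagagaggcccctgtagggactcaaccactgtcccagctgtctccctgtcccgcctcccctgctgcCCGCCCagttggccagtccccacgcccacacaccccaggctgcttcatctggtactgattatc
Loxl1: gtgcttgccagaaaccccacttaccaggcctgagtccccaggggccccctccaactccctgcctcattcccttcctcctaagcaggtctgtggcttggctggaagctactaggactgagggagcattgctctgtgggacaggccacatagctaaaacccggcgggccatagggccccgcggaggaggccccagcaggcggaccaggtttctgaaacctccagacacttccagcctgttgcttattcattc
Both strands were searched, and overlaps between motifs were allowed. The GC box was in 5 of the 7 windows, against 30.5% of 33469 promoter windows of the same length. The hypoxia response core ACGTG was in the window of Plod2, against 16.6% of all windows, and the CCAAT box in that of Timp3, against 34.0%. The glucocorticoid receptor half-site AGAACA was in 0 of the 7, against 17.5% of all windows, and so were the full glucocorticoid response element, that half-site facing its reverse complement across 3 bases (0.012% of all windows), the AP-1 site TGANTCA (6.34%) and the TATA box TATAAA (12.9%). The 7 windows held from 56.0% to 74.8% G and C, against a median of 51.2% over all windows.

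The deposited signals had array medians from 25.8 to 132.1, and 4 arrays (replicate 1 of each group and vehicle replicate 3) had not been brought to the scale shared by the other 5. Dexamethasone replicate 3 and dexamethasone plus testosterone replicate 3 stood apart, with signal at the 3′ end of Gapdh 4.94 and 6.22 times that at the 5′ end, against 1.06 to 1.17 times in the other 7 arrays. No vehicle array shares that property, so within these 2 arrays only the hormone groups can be compared with each other. All 12 muscle fibre markers were near the top of the range, from the 98.4th percentile of probe sets (Tnnt1) upward, as the tissue label states. Dexamethasone plus testosterone replicate 1 stood apart in genes of slow fibres. The slow myosin gene Myh7 was at 8.74 on that array, against 14.14 to 14.96 on the other 8, and the slow troponin gene Tnnt1 at 7.42, against 11.95 to 13.85. Myh2, the myosin of type IIA fibres, was at 12.71, against 14.22 to 14.78. Below, a level is the quantile-normalized log2(signal + 16), a difference is on that scale, ± after a mean is the SD over 3 arrays and ± after a difference is the standard error of the limma fit.

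With dexamethasone alone, 9 of the 10 genes were below vehicle on average and 1, Lox, was above it, but 0 passed the test (limma, adjusted p under 0.05). That rule called 1.05% of the 18625 probe sets tested in this comparison, 0.569% as higher and 0.483% as lower. The 196 calls behind these shares became 1 to 13 without any one vehicle array or without dexamethasone replicate 1 or 2, 52 without dexamethasone plus testosterone replicate 2 and 340 without dexamethasone replicate 3. Of the 10 genes, 6 lower and 1 higher (Lox) had an unadjusted p under 0.05, against 7.57% and 7.88% of all probe sets (15.5% in either direction). The 3 with the lowest p were Loxl1, 4.43-fold lower, Pcolce, 3.92-fold lower, and Serpinh1, 2.88-fold lower, with adjusted p = 0.0855, 0.0905 and 0.0959. For 7 of the 10 genes every dexamethasone array was below every vehicle array, against 10.4% of all probe sets tested, and for 0 was every one above (12.5% of all). The median difference of the 10 genes was -0.77, against 0.01 for all probe sets tested.

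**Figure D1:**
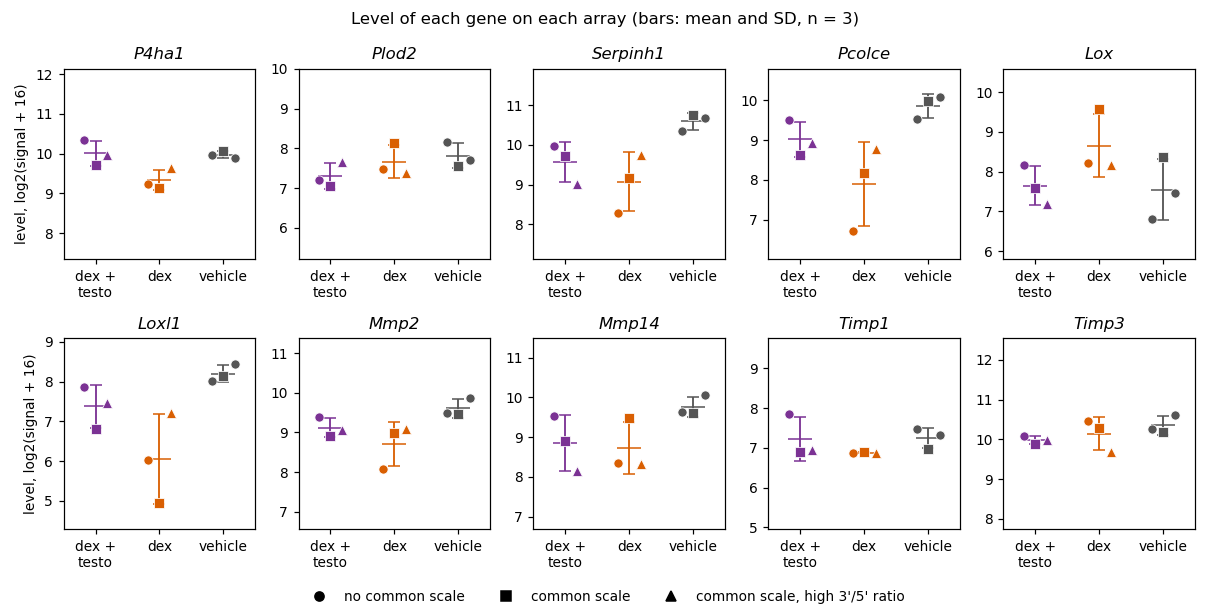
Level of each gene, by its brightest probe set, on each of the 9 arrays as log2(signal + 16), with dexamethasone plus testosterone left, dexamethasone in the middle and vehicle right. Points are arrays, marker shape gives the scaling and RNA quality set, and bars give mean and SD (n = 3). Loxl1, Pcolce and Serpinh1 are lower on all 3 dexamethasone arrays than on any vehicle array, and the dexamethasone arrays lie far apart.

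Enzymes and a chaperone of the endoplasmic reticulum come first. Serpinh1 (probe set 1371310_s_at) had levels of 9.97, 9.71 and 9.01 in the dexamethasone plus testosterone arrays and 8.28, 9.17 and 9.76 in the dexamethasone arrays, against 10.36, 10.76 and 10.68 in the vehicle arrays. All 6 arrays of the hormone groups were below all 3 vehicle arrays, and the 2 hormone groups overlapped. The difference of dexamethasone from vehicle was -1.53 ± 0.38 (95% interval -2.38 to -0.67, adjusted p = 0.0959). Its second probe set, 1369009_at, was too dim to be tested, with levels of 4.67 to 5.86.

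P4ha1 encodes a catalytic subunit of prolyl 4-hydroxylase, whose product keeps the triple helix stable at body temperature. Its levels were 10.34, 9.71 and 9.98 in the dexamethasone plus testosterone arrays and 9.24, 9.15 and 9.63 in the dexamethasone arrays, against 9.96, 10.08 and 9.90 in the vehicle arrays. Dexamethasone arrays lay below both other groups without overlap, while the combination and vehicle overlapped. The difference of dexamethasone from vehicle was -0.64 ± 0.22 (adjusted p = 0.203), and the SD of P4ha1 over the vehicle arrays, 0.0905, was the smallest of the 10 genes. Plod2, the lysyl hydroxylase that acts on the end regions of collagen chains, had levels of 7.21, 7.05 and 7.66 with both hormones and 7.47, 8.14 and 7.38 with dexamethasone, against 8.17, 7.57 and 7.70 with vehicle. The 3 groups overlapped, and the dexamethasone difference of -0.15 ± 0.28 had a 95% interval from -0.78 to 0.47 (adjusted p = 0.835).

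Pcolce, an enhancer of the proteinase that removes the C-terminal propeptide, had levels of 9.50, 8.64 and 8.92 in the dexamethasone plus testosterone arrays and 6.73, 8.17 and 8.79 in the dexamethasone arrays, against 9.53, 9.99 and 10.08 in the vehicle arrays. Its dexamethasone mean of 7.90 ± 1.06 was below the vehicle mean of 9.87 ± 0.29, and dexamethasone replicate 1 was the lowest array by over 1 unit. Among replicate 2 arrays, which share 1 deposited scale, the deposited signal was 648.1 with both hormones, 476.3 with dexamethasone and 1650.3 with vehicle. The difference was -1.97 ± 0.47 (95% interval -3.04 to -0.90, adjusted p = 0.0905).

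Loxl1 and Lox are the lysyl oxidases among the 10 genes. Loxl1, a lysyl oxidase known in mice for its part in elastic fibres, had levels of 7.87, 6.81 and 7.46 in the dexamethasone plus testosterone arrays and 6.03, 4.95 and 7.20 in the dexamethasone arrays, against 8.02, 8.15 and 8.45 in the vehicle arrays. The vehicle arrays were the 3 highest of the 9. In deposited signal the replicate 2 arrays stood at 157.7 with both hormones, 28.7 with dexamethasone and 475.6 with vehicle. The difference of dexamethasone from vehicle was -2.15 ± 0.51 (95% interval -3.28 to -1.01, adjusted p = 0.0855).

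Lox, the founding lysyl oxidase, was the 1 gene of the 10 with a dexamethasone mean above vehicle. Levels at its brighter probe set (1368171_at) were 8.17, 7.59 and 7.19 in the dexamethasone plus testosterone arrays and 8.22, 9.57 and 8.15 in the dexamethasone arrays, against 6.81, 8.36 and 7.47 in the vehicle arrays. Vehicle replicate 2 overlapped the dexamethasone group. The difference of dexamethasone from vehicle was 1.10 ± 0.49, 2.14-fold higher (95% interval 0.00 to 2.20, adjusted p = 0.322), and it was 0.64 without dexamethasone replicate 2. A second Lox probe set, 1368172_a_at, had levels of 7.55, 7.66 and 4.24 with both hormones and 6.32, 9.09 and 5.45 with dexamethasone, against 6.47, 7.13 and 6.39 with vehicle. Its 2 lowest values were on the 2 arrays with a high 3′ to 5′ ratio, and its difference was 0.29 ± 1.06 (adjusted p = 0.925); the part of RNA quality in it was not tested.

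For the proteases that cut the matrix the differences were smaller than those of Loxl1, Pcolce and Serpinh1. Mmp2, gelatinase A, had levels of 9.38, 8.90 and 9.07 in the dexamethasone plus testosterone arrays and 8.08, 8.98 and 9.08 in the dexamethasone arrays, against 9.49, 9.45 and 9.87 in the vehicle arrays (probe set 1370301_at). Both hormone groups lay below vehicle without overlap, and the difference of dexamethasone from vehicle was -0.89 ± 0.29 (adjusted p = 0.178), or -0.57 without dexamethasone replicate 1. The other Mmp2 probe set, 1369825_at, was too dim to be tested, at 4.45 to 5.94. Mmp14, the membrane-bound protease that activates pro-Mmp2, had levels of 9.54, 8.89 and 8.14 with both hormones and 8.35, 9.48 and 8.33 with dexamethasone, against 9.63, 9.60 and 10.05 with vehicle. Dexamethasone replicate 2 came within 0.12 of vehicle replicate 2, and the difference was -1.04 ± 0.41 (adjusted p = 0.261). At the dimmer probe set 1378225_at the Mmp14 difference was -0.12 ± 0.40 (adjusted p = 0.915), and dexamethasone replicate 2 was its highest array at 7.40.

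Timp1 and Timp3 are the inhibitors among the 10 genes. Timp1, an inducible inhibitor of many metalloproteinases, had levels of 7.86, 6.89 and 6.94 in the dexamethasone plus testosterone arrays and 6.87, 6.90 and 6.87 in the dexamethasone arrays, against 7.48, 6.98 and 7.32 in the vehicle arrays. The 3 dexamethasone arrays lay just below the lowest vehicle array, with a difference of -0.38 ± 0.28 (95% interval -1.0 to 0.24, adjusted p = 0.559). Timp3, the inhibitor that binds to the matrix itself, had levels of 10.09, 9.89 and 9.99 with both hormones and 10.46, 10.30 and 9.68 with dexamethasone, against 10.25, 10.18 and 10.62 with vehicle. That difference of -0.21 ± 0.24 (95% interval -0.75 to 0.33) had adjusted p = 0.735. The 3 other Timp3 probe sets had dexamethasone differences of -0.36 ± 0.22, -0.18 ± 0.37 and -0.85 ± 0.48, with adjusted p from 0.443 to 0.860.

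**Figure D2:**
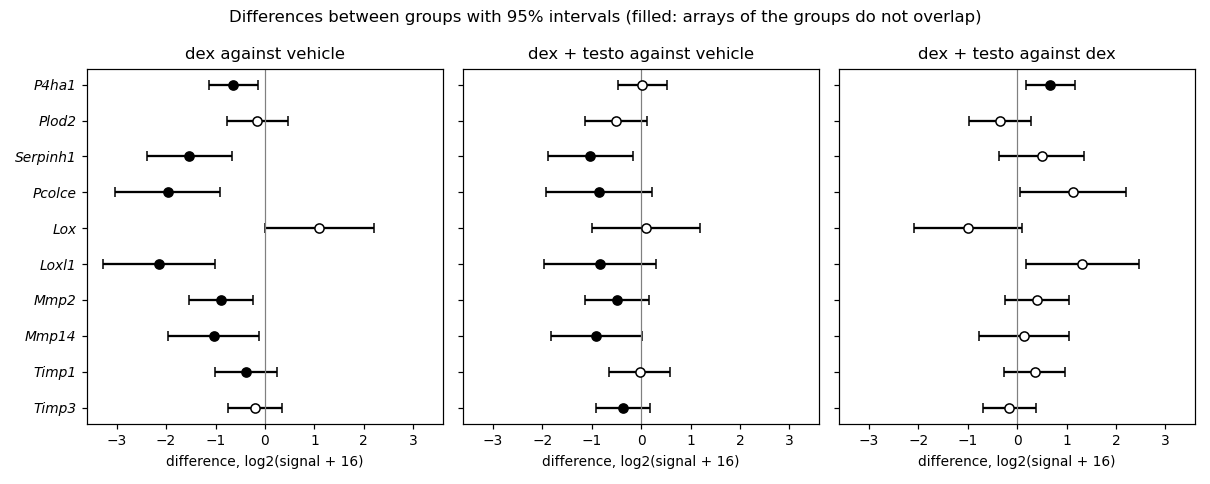
Difference between groups for each gene on the log2(signal + 16) scale, with the 95% interval of the limma fit, in 3 panels for dexamethasone against vehicle, dexamethasone plus testosterone against vehicle, and dexamethasone plus testosterone against dexamethasone. Filled points are genes with every array of one group on the same side of the other group: 7 in the first panel, 6 in the second and 1 in the third.

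The dexamethasone arrays lay apart. Relative to the vehicle mean, the median of the 10 genes was -1.07, -0.49 and -0.60 in dexamethasone replicates 1, 2 and 3. For Loxl1, Pcolce and Serpinh1, dexamethasone replicate 3 was the dexamethasone array nearest to vehicle, with levels of 7.20, 8.79 and 9.76. Leaving out dexamethasone replicate 3, or both arrays with a high 3′ to 5′ ratio, made Loxl1, Pcolce and Serpinh1 pass, with differences of -2.66, -2.38 and -1.85 (adjusted p = 0.0198, 0.0348 and 0.0437) in the first case. In that case 145 of 18625 probe sets were called higher and 195 lower, and in the second 196 and 264. With all 9 arrays the counts were 106 and 90. Leaving out any other single array left 0 of the 10 genes passing. Within the arrays lacking a common scale the differences of Loxl1, Pcolce and Serpinh1 were -2.20, -3.08 and -2.23, and between the replicate 2 arrays they were -3.21, -1.82 and -1.59. The first set compares dexamethasone replicate 1 with vehicle replicates 1 and 3, so neither set replicates the dexamethasone group. Mmp2 and Mmp14 stood at -1.60 and -1.49 in the first of these sets and at -0.47 and -0.12 in the second, while Lox was at 1.08 and 1.21.

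**Figure D3:**
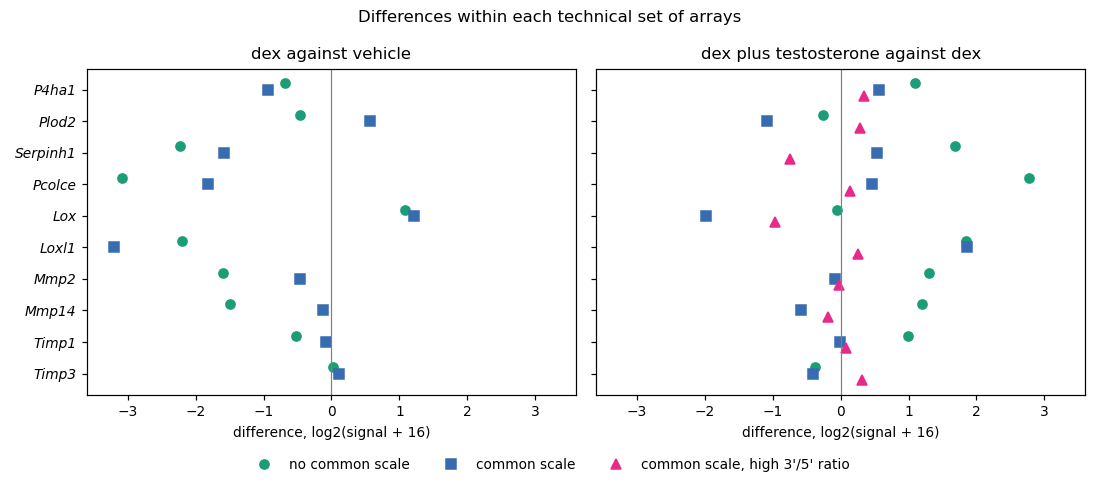
Difference for each gene within sets of arrays split by deposited scaling and RNA quality, on the log2(signal + 16) scale, for dexamethasone against vehicle (left) and dexamethasone plus testosterone against dexamethasone (right). The arrays lacking a common scale are grouped by that lack, so they do not share a deposited scale. Dexamethasone replicates 1, 2 and 3 each fall in a different set, so no set replicates that group. Loxl1, Pcolce and Serpinh1 are below 0 in both sets on the left, and Lox is above 0 in both. On the right the 3 sets lie apart, with Pcolce between 0.13 and 2.77.

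Against vehicle, the combination of dexamethasone and testosterone left 8 of the 10 genes below (47.8% of all probe sets were) and 2 above, again with 0 passing (lowest adjusted p = 0.815). In this comparison limma called 0 of 18625 probe sets (0% at adjusted p under 0.05), and 1139 (6.12%) had an unadjusted p under 0.05, 2.95% lower and 3.16% higher. Serpinh1, lower, was the 1 gene of the 10 among them. For 6 genes every array of the combination was below every vehicle array, against 5.79% of all probe sets tested: Pcolce, Loxl1, Serpinh1, Mmp2, Mmp14 and Timp3. For 0 was every array above (7.53% of all). Serpinh1 had the largest difference of the 10, -1.03 ± 0.38, 2.04-fold lower, and Mmp14 followed with -0.90 ± 0.41 (-0.53 without dexamethasone plus testosterone replicate 3). Pcolce and Loxl1 stood at -0.85 ± 0.47 and -0.83 ± 0.51 (Loxl1 at -0.54 without dexamethasone plus testosterone replicate 2), and Plod2 at -0.51 ± 0.28 (-0.33 without vehicle replicate 1). P4ha1, Timp1 and Lox had differences of 0.03 ± 0.22, -0.03 ± 0.28 and 0.10 ± 0.49. The median over the 10 genes was -0.50, against 0.02 for all probe sets. Without dexamethasone plus testosterone replicate 1, the array low in slow fibre genes, it was -0.55, with Serpinh1 at -1.24 and Mmp14 at -1.25 (both adjusted p = 0.494), Pcolce and Loxl1 both at -1.09 and Timp1 at -0.35.

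Set against dexamethasone alone, adding testosterone gave values above dexamethasone for 7 genes and below it for 3, Lox, Plod2 and Timp3 (50.1% of all probe sets were below). None of the 10 passed (limma, 0 of 10, lowest adjusted p = 0.306, with 3 higher and 0 lower at an unadjusted p under 0.05), where 0.113% of all probe sets were called, 0.0698% higher and 0.043% lower. The unadjusted rule took 11% of all probe sets, 5.59% higher and 5.36% lower. The 21 calls here became 67 without dexamethasone replicate 3 and 0 to 5 without any one of the vehicle arrays, the other dexamethasone arrays or the combination arrays. P4ha1 was the 1 gene whose arrays did not overlap, higher in all 3 combination arrays, against 7.24% of all probe sets higher without overlap and 7.35% lower. The P4ha1 difference was 0.67 ± 0.22, 1.59-fold higher (95% interval 0.17 to 1.16, adjusted p = 0.306), and it was above 0 in each set of arrays, at 1.10, 0.56 and 0.35. Loxl1 and Pcolce had differences of 1.32 ± 0.51 and 1.12 ± 0.47 (adjusted p = 0.386 and 0.430), and Serpinh1 one of 0.50 ± 0.38. The value for Loxl1 was 0.76 without dexamethasone replicate 2, and that for Pcolce was 0.54 without dexamethasone replicate 1. For Serpinh1, leaving out single arrays gave 0.10 (without dexamethasone replicate 1) to 0.83 (without dexamethasone replicate 3). Lox stood at -1.0 ± 0.49, 2.00-fold lower (adjusted p = 0.508), and at -0.54 without dexamethasone replicate 2. This comparison and that of dexamethasone with vehicle share the 3 dexamethasone arrays, so a low dexamethasone array moves both.

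The median over the 10 genes was 0.38, and it was 0.093 without dexamethasone replicate 1 and 0.15 without dexamethasone plus testosterone replicate 1, the array low in Myh7 and Tnnt1. Without that array P4ha1 stood at 0.51 (adjusted p = 0.546), Loxl1 at 1.10, Pcolce at 0.90, Timp1 at 0.038 and Mmp14 at -0.21. The part of its fibre make-up in these values was not tested. Within the arrays lacking a common scale, which compare the 2 replicate 1 arrays, it was 1.14. Between the replicate 2 arrays it was -0.042 and between the 2 arrays with a high 3′ to 5′ ratio 0.10. Pcolce spread most between these sets, with 2.77, 0.47 and 0.13, and Serpinh1 stood at 1.69, 0.54 and -0.74.

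Of 69 further genes of collagen modification, cleavage, cross-linking, matrix proteolysis and its inhibition, 57 had a probe set with that symbol and 41 were bright enough to be tested. With dexamethasone 0 rose, 1 fell and 40 did not pass, 30 of the 41 lay below vehicle (48.8% of all probe sets did), and the median difference was -0.38. The gene that fell was Loxl2, another lysyl oxidase. Its levels were 7.00, 7.14 and 6.32 in the dexamethasone plus testosterone arrays and 4.46, 4.73 and 5.93 in the dexamethasone arrays, against 7.11, 7.78 and 7.57 in the vehicle arrays. The groups of dexamethasone and vehicle did not overlap, and the difference was -2.45 ± 0.39 (adjusted p = 0.0324). Its values in dexamethasone replicates 1 and 2 were as low as those of the Mmp2 probe set too dim to be tested (4.45 to 5.94). The call was lost, with differences of -2.69 to -2.18 and adjusted p from 0.0581 to 0.155, without any one of the 3 vehicle arrays, dexamethasone replicates 1 and 2 and dexamethasone plus testosterone replicate 2. A dimmer Loxl2 probe set stood at -0.88 ± 0.43 (adjusted p = 0.374). With testosterone added, the brighter Loxl2 probe set differed from dexamethasone by 1.78 (adjusted p = 0.125) without overlap. Among fits leaving out single arrays it passed only without dexamethasone replicate 3 (2.18, adjusted p = 0.0385). The dimmer probe set differed from dexamethasone by 0.16 ± 0.43 (adjusted p = 0.945). Against vehicle, the difference of the brighter probe set with the combination was -0.67 (adjusted p = 0.849). Against vehicle, 0 of the 41 genes passed with the combination and the median was -0.29, and against dexamethasone 0 passed and the median was 0.10.

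The other genes of this list are values that did not pass. Among helpers of collagen folding and export, the dexamethasone difference was -1.77 ± 0.36 for Sparc, a collagen-binding matricellular protein (adjusted p = 0.0555; second probe set -1.56 ± 0.45, adjusted p = 0.137), -1.31 ± 0.33 for the prolyl 3-hydroxylase family gene P3h3 (adjusted p = 0.10) and -1.09 ± 0.47 for the chaperone gene Fkbp10 (adjusted p = 0.305). For Bmp1, the propeptide-cutting proteinase that Pcolce assists, it was -0.40 ± 0.26 (adjusted p = 0.508). Loxl3 and the transglutaminase gene Tgm2 stood at -0.66 ± 0.42 and 0.22 ± 0.25, with -0.57 ± 0.29 at a second Tgm2 probe set. Of the 6 inhibitors of the list that were tested, 5 lay below vehicle with dexamethasone and Timp4 above, with a median of -0.55. Timp2, which also takes part in the activation of pro-Mmp2, was at -1.56 ± 0.44 (adjusted p = 0.134; second probe set -1.25 ± 0.69), Serpine2 at -0.83 ± 0.25 and Timp4, a TIMP made in striated muscle, at 0.74 ± 0.24 (adjusted p = 0.181). Levels of Timp4 were 7.88, 8.12 and 7.66 with both hormones and 8.01, 8.71 and 8.15 with dexamethasone, against 7.79, 7.53 and 7.32 with vehicle. The serine proteases Htra1 and Fap stood at -0.83 ± 0.26 and -0.85 ± 0.27, and Adamts12 at -1.04 ± 0.34. Most of the other MMP genes, among them Mmp3, Mmp8, Mmp9 and Mmp13, were too dim to be tested.

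The substrates of these enzymes are the fibrillar collagens. By their brightest probe sets, the 5 fibrillar collagen genes Col1a1, Col1a2, Col3a1, Col5a1 and Col5a2 had dexamethasone differences of -2.98 ± 0.94, -2.78 ± 0.80, -3.00 ± 0.71, -1.93 ± 0.55 and -1.92 ± 0.42, and 0 of the 5 passed (lowest adjusted p = 0.0693). All 5 had an unadjusted p under 0.05. Second probe sets passed for Col5a1 (-1.74 ± 0.29, adjusted p = 0.0353) and Col5a2 (-2.07 ± 0.38, adjusted p = 0.0415), so both genes fell by that probe set. Each call was lost without any one of the vehicle arrays, dexamethasone replicates 1 and 2 and dexamethasone plus testosterone replicate 2, and that of Col5a2 also without dexamethasone plus testosterone replicate 1 (adjusted p from 0.0601 to 0.176 over these). The second probe sets of Col1a1 and Col1a2 stood at -2.33 ± 0.69 and -2.99 ± 0.77 (adjusted p = 0.149 and 0.107). As a deviation from the mean of the vehicle arrays, the median of the 5 brightest probe sets was -0.35, -1.11 and -1.10 in dexamethasone plus testosterone replicates 1, 2 and 3 and -4.49, -1.87 and -1.38 in dexamethasone replicates 1, 2 and 3. Dexamethasone replicate 1 was the lowest of the 9 arrays for the collagen list, as it was for Pcolce, Serpinh1 and Mmp2. The part of the collagen genes' own difference in that of the 10 genes was not tested.

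Of 13 markers of fibroblasts, 12 had a probe set, 10 were tested and all 10 lay below vehicle with dexamethasone, with 1 that fell, Mfap5 (-1.75 ± 0.29, adjusted p = 0.0338), and 0 that rose. The 10 differences were uneven, from -2.90 for Lum to -0.10 for Tcf7l2. At an unadjusted p under 0.05, 4 were lower, against 7.57% of all probe sets. Mfap5, a microfibril protein gene, also lost its call without each of the 6 arrays named for Loxl2 (adjusted p from 0.0581 to 0.155). Their median relative to the vehicle mean was -0.09, -0.65 and -0.62 in the dexamethasone plus testosterone replicates and -1.54, -0.85 and -0.25 in the dexamethasone replicates. The summed normalized signal of the 12 markers ran from 14210 to 24849 with both hormones and from 8402 to 23810 with dexamethasone, against 21736 to 31914 with vehicle, and 0 of them were listed at 0. In whole muscle, fewer fibroblasts and less RNA per fibroblast cannot be told apart. Dexamethasone replicate 1 was the lowest array both for this list and for the 10 genes, and the order of the other arrays differed between them. Endothelial markers had a median dexamethasone difference of -0.54 (8 tested, 0 passing) and summed to 2514 to 2675 with both hormones and 2665 to 2965 with dexamethasone, against 3141 to 3642 with vehicle. Of these 8, 6 lay below vehicle with dexamethasone, while Flt1 (0.79 ± 0.26, adjusted p = 0.190) and Pecam1 (0.02 ± 0.19) lay above. Tendon cell markers had a median of -0.62 (7 tested, 5 below vehicle, 0 passing) and summed to 1219 to 2502 with both hormones and 731 to 2813 with dexamethasone, against 2512 to 3753 with vehicle. Macrophage markers had a median of -0.73 with the combination against vehicle and of -0.40 with dexamethasone against vehicle (8 tested, 0 passing in either), and summed to 2307, 873 and 936 in dexamethasone plus testosterone replicates 1, 2 and 3 and to 907 to 3407 with dexamethasone, against 1847 to 2265 with vehicle. Of these 8, 7 lay below vehicle with the combination and 6 with dexamethasone. Cd163 lay above in both, at 0.38 ± 0.28 and 1.04 ± 0.28 (adjusted p = 0.886 and 0.119), and Mrc1 at 0.15 ± 0.50 with dexamethasone. With the combination against vehicle the medians of fibroblast, tendon cell and endothelial markers were -0.39, -0.77 and -0.33, with 0 passing. Smooth muscle, adipocyte and Schwann cell markers had medians of -0.24, -0.27 and -0.46 with the combination against vehicle and of -0.21, -0.03 and -0.21 with dexamethasone against vehicle, all with 0 passing. The muscle fibre markers had medians of -0.001 and -0.03 in these comparisons, medians that do not show the low Myh7 and Tnnt1 of dexamethasone plus testosterone replicate 1. The part of any of these cell types in the values of the 10 genes was not tested.

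**Figure D4:**
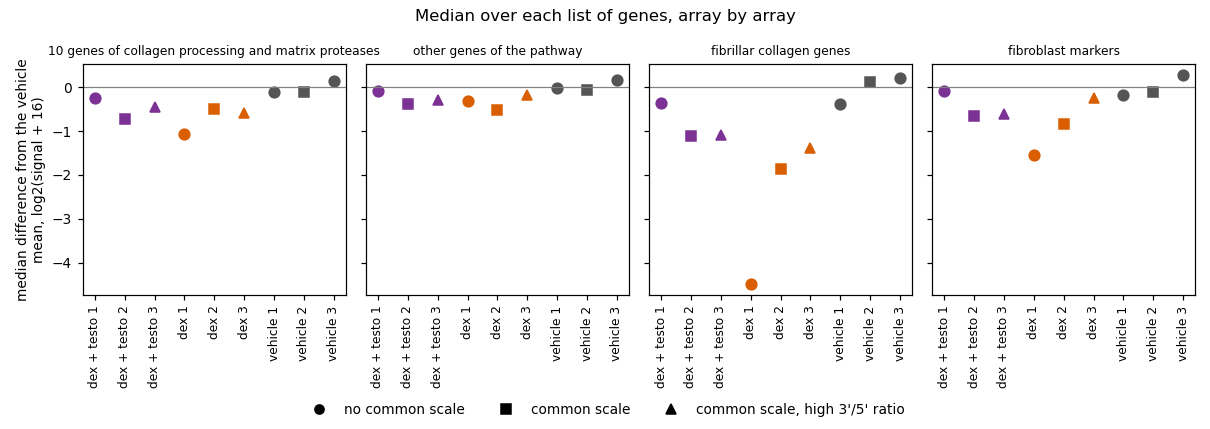
Median difference from the vehicle mean on the log2(signal + 16) scale for 4 lists of genes on each array, with dexamethasone plus testosterone left, dexamethasone in the middle and vehicle right. Dexamethasone replicate 1 is the lowest array for the 10 genes (-1.07), the fibrillar collagen genes (-4.49) and the fibroblast markers (-1.54).

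Across the 9 arrays, 4 of the 10 genes followed the mean of the other 9 closely, with Pearson's r of 0.89 for Mmp2, 0.84 for Pcolce, 0.83 for Mmp14 and 0.82 for Serpinh1. Timp1, Loxl1 and P4ha1 had r from 0.56 to 0.61, Timp3 and Plod2 0.21 and 0.15, and Lox -0.36. These are descriptions over arrays that share treatments and scaling. Of 10418 other genes, the 5 with the highest r to the mean standardized profile of the 10 were Txndc5 (0.96), Vtn (0.96), Slc8a1 (0.93), Lasp1 (0.93) and Itm2b (0.93). Txndc5 encodes a disulfide isomerase of the endoplasmic reticulum and Vtn the matrix protein vitronectin. Slc8a1 encodes a sodium-calcium exchanger, Lasp1 an actin-binding protein and Itm2b a membrane protein. Txndc5 had levels of 8.50, 7.85 and 8.13 in the dexamethasone plus testosterone arrays and 7.87, 8.12 and 8.08 in the dexamethasone arrays, against 8.51, 8.55 and 8.53 in the vehicle arrays, and its difference of -0.51 did not pass (adjusted p = 0.272).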

How the data were processed

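The authors deposited linear intensities of 31099 probe sets on 9 arrays. Per the labels' protocols, total RNA was extracted with phenol and chloroform, cleaned on columns and labelled by the standard Affymetrix protocol; the signal algorithm is not given in the sources used here. After 57 controls were left out, log2(intensity + 16) of the deposited intensities was quantile normalized, because array medians spanned 1.82 on that scale, and probe sets below the 40th percentile of the mean were left out. The remaining 18625 were fitted to group means with limma 3.58.1 (R 4.3.3; lmFit, eBayes) on the 9 arrays together, and p-values were adjusted over all 18625 by Benjamini-Hochberg. A fold change on this scale understates the change of dim probe sets. Every p in the text is from this fit or a stated alternative to it. The fit was tested on simulated data with independent errors and without the technical sets of arrays, so that test does not cover their effect. A permutation of 3 arrays against 3 could not go below 0.1. The number of arrays limits the precision. Alternatives varied the pseudocount, filter, scaling, variance model, blocks, probe set and the arrays included.

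Where a gene has several probe sets, the brightest on average stands for it in counts and medians, and the other probe sets are given for the 10 genes, the collagens and the named pathway genes. Symbols came from the platform annotation, updated by gene ID to the rat annotation GRCr8. The sets of arrays were split by deposited scaling and the Gapdh 3′ to 5′ ratio. Members and lists were chosen with earlier results of these data known. By rule the text names every member, pathway genes past the threshold or otherwise up to 3 per role with the lowest p, and the 5 genes of most similar profile; Mmp3, Mmp8, Mmp9 and Mmp13, the muscle fibre genes and the second collagen probe sets are named in addition, after their values were seen.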

Additional observations from a re-analysis of the deposited data

How the results depend on the processing

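No member passed in either comparison of the combination under any of 19 alternative fits (lowest adjusted p = 0.494 against vehicle and 0.0904 against dexamethasone). For dexamethasone against vehicle, 0 members passed in 14 of 19. There were 2 with a pseudocount of 64 (Loxl1 and Pcolce), 1 each with a filter at the 60th percentile and with trend and robust variance (Loxl1), and 3 without the high-ratio arrays; leaving out single arrays gave 0 to 3, the 3 without dexamethasone replicate 3. Over the fits, adjusted p ran from 0.0198 to 0.277 for Loxl1, 0.0348 to 0.287 for Pcolce and 0.0240 to 0.292 for Serpinh1. The member median for dexamethasone against vehicle was -0.41 with median scaling, which itself moved the median of all probe sets to 0.20, and -1.09 and -0.30 within the unscaled and the replicate 2 arrays; leaving out single arrays gave -0.81 to -0.58. For the combination against vehicle it was -0.28 with median scaling (all probe sets 0.19), and -0.60 to -0.38 leaving out arrays. Against dexamethasone it was 1.14 and -0.042 within those sets, and 0.093 to 0.53 leaving out arrays.

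Over all probe sets, the 196 calls for dexamethasone against vehicle (106 higher, 90 lower) became 54 with a pseudocount of 1, 414 with 64, 48 with no filter, 469 with a filter at the 60th percentile, 130 with median scaling (107 higher, 23 lower), 510 with trend and robust variance, 460 without the high-ratio arrays (196 higher, 264 lower), 123 from the 2 groups alone and 1 to 340 leaving out single arrays. The 21 calls between the hormone groups (13 higher, 8 lower) became 5, 102, 0, 83, 6 (3 higher, 3 lower), 149, 39, 0 and 0 to 67 under the same settings. With the array sets as a block, 82 probe sets were called higher and 97 lower for dexamethasone against vehicle. Between the hormone groups that block gave 13 higher and 9 lower. Same-numbered arrays did not deviate together in every pair (correlations from -0.20 to 0.59), and the main fit does not pair them. The replicate 2 arrays did so in each comparison, at 0.30, 0.14 and 0.37. With 3 arrays a group, such correlations cannot decide whether the numbers pair the animals. With the replicate number as a replicate block, 13 and 0 probe sets (dexamethasone against vehicle, and between the hormone groups) and 0 members passed, and Loxl2 and Mfap5 lost their calls (adjusted p = 0.0599 for both). In alternatives added after seeing the data, Loxl2 kept its call against vehicle in 8 of 18 fits (adjusted p from 0.00909 to 0.155), and the second probe sets of Col5a1 and Col5a2 in 9 and 7 of 19 (0.0144 to 0.157 and 0.00962 to 0.176).

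Differences near 0 turned sign in some settings. With dexamethasone against vehicle, Plod2 was 0.022 with median scaling, and Timp3 0.21 with median scaling and 0.028 without the high-ratio arrays. Leaving out single arrays brought Plod2 to between -0.39 and 0.027 and Timp3 to between -0.36 and 0.028. For the combination against vehicle, Lox was -0.18 at its second probe set and -0.27 to 0.51 leaving out arrays. There P4ha1 was -0.011 with the array sets as a block and -0.14 to 0.18 leaving out arrays. Timp1 was 0.12 with that block, 0.11 without the high-ratio arrays and -0.35 to 0.14 leaving out arrays. Against dexamethasone, Mmp14 was -0.40 at its second probe set and -0.21 to 0.52 leaving out arrays, and Timp3 was 0.43 at the probe set 1368989_at and -0.39 to 0.0020 leaving out arrays. Within sets of arrays some turns were larger. Plod2 with dexamethasone against vehicle was -0.46 in the arrays lacking a common scale and 0.57 between the replicate 2 arrays. In the same sets, with the combination against vehicle, Lox was 1.03 and -0.77 and P4ha1 0.41 and -0.37. Mmp14 against dexamethasone was 1.19 and -0.58 there, and -0.19 between the high-ratio arrays. The causes were not tested. With 3 arrays a group, differences of the size of those of Mmp2 or P4ha1 had standard errors of 0.22 to 0.29 and did not pass.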
